A study of Arabidopsis thaliana with 15 samples.

Results

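The exosome mutants rrp4-2 and hen2-4 of Arabidopsis thaliana were set against each other, both sampled 30 min after seedlings were given flg22. The comparison was defined by the sample labels and used no measured value: it rests on 6 of the 15 libraries analysed, 3 of rrp4-2 and 3 of hen2-4. A further 3 wt libraries of the same time point show where the wild type stood. The remaining libraries, 3 of hen2-4 and 3 of wt, were taken 10 min after flg22 and entered the fits as well. Each library was a pool of 10 whole 14-day-old seedlings of the ecotype Col-0, and flg22 had been added to the liquid medium at 3.3 uM. The rrp4-2 line carries a hypomorphic point mutation in RRP4, the hen2-4 line a T-DNA insertion in HEN2, and wt neither. Cap analysis of gene expression (CAGE) was used, which captures capped RNA and sequences the first bases, so that each read, or tag, marks a transcription start. Neighbouring starts on the same strand form a tag cluster (TC), and the TCs of a gene together give its level. Levels are given as CPM, which is tag counts scaled to a common library size with TMM factors, and differences as log2 of rrp4-2 over hen2-4.

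The RNA exosome is a complex that degrades RNA from its 3′ end. RRP4 is a subunit of the core, which works both in the nucleus and in the cytoplasm, and a complete loss of it is lethal in this species. HEN2 is a helicase of the nucleoplasm that delivers short-lived capped and polyadenylated RNA, such as promoter antisense and intergenic transcripts, to the nuclear exosome. The cytoplasmic exosome is served instead by the SKI complex. The peptide flg22 is a fragment of bacterial flagellin that the receptor FLS2 senses, which starts pattern-triggered immunity. The comparison thus asks how the RNA population of plants with a weakened exosome core differs from that of plants with an interrupted gene for a nuclear cofactor.

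Each line was represented by a single allele grown from a single seed batch, so that other differences between the lines cannot be told apart from those due to the 2 mutated genes. The replicates were grown on separate plates side by side and treated separately on the same occasion, which limits what the spread between them covers. In pooled whole seedlings, fewer cells of a type and less RNA per cell cannot be told apart. The rrp4-2 libraries held 19.1 to 22.5 M tags in genes, against 15.4 to 24.8 M in hen2-4 and 19.3 to 22.1 M in wt at 30 min.

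HEN2 and RRP4 themselves were examined first. HEN2 had 42.1, 35.7 and 46.9 CPM in rrp4-2, against 7.89, 7.10 and 4.05 CPM in hen2-4 and 57.5, 36.1 and 39.6 CPM in wt. The hen2-4 libraries were the lowest of the 9 and did not overlap with the others, and HEN2 was 6.59-fold higher in rrp4-2 (log2 difference 2.72 ± 0.24 SE, edgeR quasi-likelihood test, Benjamini-Hochberg adjusted p = 5.3e-05). The start of HEN2 is not itself interrupted. The genotyping primers of hen2-4 in the study's oligonucleotide list match chr2:2896660-2897628 of TAIR10.1, a stretch of 969 bp that begins 1517 bases downstream of the last base of the HEN2 TC. RRP4 had 21.4, 23.1 and 19.2 CPM in rrp4-2, against 22.4, 20.1 and 23.5 CPM in hen2-4 and 14.3, 17.9 and 22.4 CPM in wt. These ranges overlapped, with a difference of -0.05 ± 0.17 (adjusted p = 0.92 in the edgeR test), and since rrp4-2 is a point mutation the RRP4 level does not check that label. The rrp4-2 primers match chr1:824780-824916, 137 bp that begin 155 bases after the RRP4 TC. The primers are shown because they locate both alleles relative to the tags. They are in lower case and read 5′ to 3′, and all match the reference in full except the right primer of rrp4-2, which matches at 22 of 23 bases.
hen2-4 left: tatggtattcagcaacctccg
hen2-4 right: gttcctcaaatgctgctcttg
rrp4-2 left: ctattcccgtcaaccatgacg
rrp4-2 right: catcgacctcggaagttccaggt

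Few genes separated the 2 mutants. Of 18879 genes tested, 63 (0.334%) passed an adjusted p of 0.05 with a log2 difference of at least 1 in either direction, 38 of them (0.201%) higher and 25 (0.132%) lower in rrp4-2. Without the limit on the difference 74 genes (0.392%) passed. The same fit called 510 genes (2.7%) between rrp4-2 and wt and 188 genes (0.996%) between hen2-4 and wt. All 63 genes had rrp4-2 and hen2-4 libraries that did not overlap, as did 10.9% of all genes with rrp4-2 above and 11.5% with rrp4-2 below. Of the 38 genes that were higher in rrp4-2, the wt mean lay below both mutants for 18, between them for 17 and above both for 3. Of the 25 lower genes, wt lay between the mutants for 21. The wt mean was nearer to hen2-4 than to rrp4-2 for 32 of the 38 higher and 21 of the 25 lower genes.

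The number of called genes depended on which libraries entered the fit. With the 6 libraries of the comparison alone, 241 genes were called, 74 higher and 167 lower in rrp4-2, and 62 of the 63 were among them. Leaving out the third wt library at 30 min, which is no member of the comparison, gave 198 genes, 64 higher and 134 lower. Leaving out each of the 6 libraries in turn left between 13 and 35 genes, and 6 higher and 4 lower genes stayed called in all 6 of these fits.

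**Figure D1:**
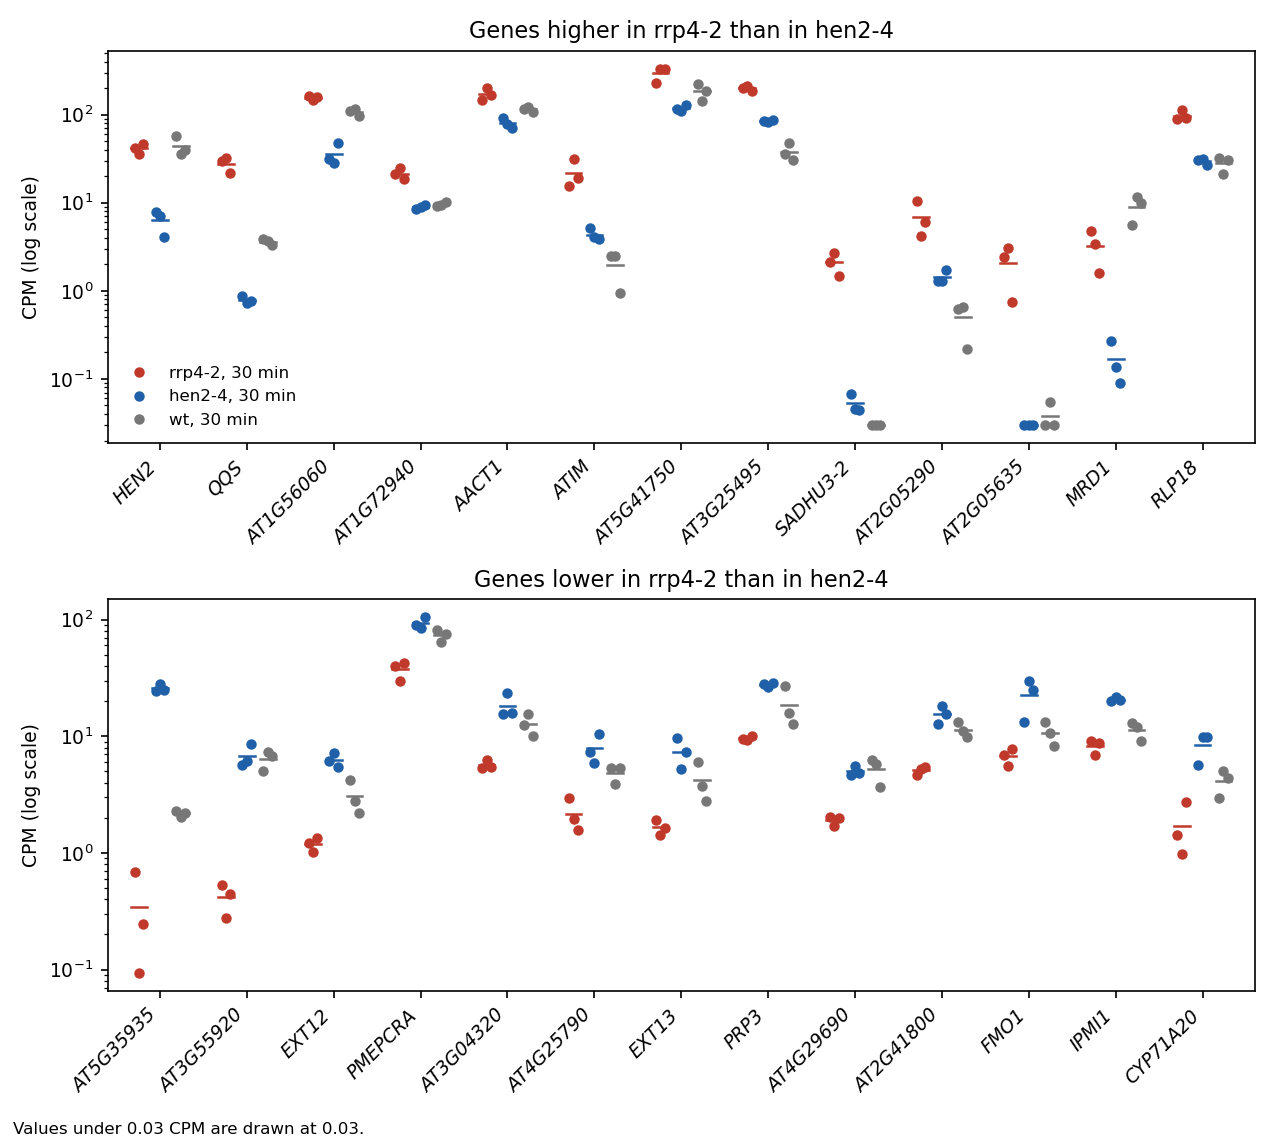
Levels of called genes by library at 30 min, in CPM on a log axis, for rrp4-2 (red), hen2-4 (blue) and wt (grey), with 1 point per library and a line at the mean of 3. The upper panel shows HEN2 and the 12 genes higher in rrp4-2 with the smallest adjusted p, the lower panel the 13 lower genes. In every gene shown the 3 red points lie apart from the 3 blue points, while the grey points fall on either side or among them. Values under 0.03 CPM are drawn at 0.03.

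The largest well-counted rise was that of QQS, an orphan gene of Arabidopsis that acts on starch and protein content and whose expression is known to vary with DNA methylation between stocks. QQS had 29.7, 32.0 and 21.7 CPM in rrp4-2, against 0.884, 0.733 and 0.757 CPM in hen2-4 and 3.87, 3.64 and 3.31 CPM in wt. The 3 groups did not overlap, with rrp4-2 above wt and hen2-4 below it. QQS was thus 35.2-fold higher in rrp4-2 than in hen2-4 (log2 difference 5.14 ± 0.30, adjusted p = 2.4e-07 in the edgeR test) and stayed called without any 1 of the 6 libraries. Of 13 listed genes that are held by DNA methylation or take part in it, 10 were tested, and QQS alone was called. The other 9 included CMT3, a chromomethylase, with a difference of 0.04, and AGO4, an Argonaute of RNA-directed DNA methylation, with -0.03. CMT3 and AGO4 take part in methylation, so their levels do not describe loci held by it, and DNA methylation itself was not measured.

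AT1G56060 encodes a short cysteine-rich protein with a transmembrane domain. Its level was 163, 148 and 158 CPM in rrp4-2, against 31.3, 27.9 and 47.4 CPM in hen2-4 and 109, 115 and 95.4 CPM in wt. Here hen2-4 was the group that stood apart, below both rrp4-2 and wt (2.14 ± 0.24 for rrp4-2 against hen2-4, adjusted p = 0.00057 in the edgeR test). The hen2-4 difference from wt also passed the test, and that of rrp4-2 from wt did not (edgeR quasi-likelihood test with Benjamini-Hochberg adjustment, adjusted p = 0.20). AACT1, an acyltransferase, had 147, 203 and 168 CPM in rrp4-2, 90.4, 79.0 and 70.3 CPM in hen2-4 and 117, 123 and 106 CPM in wt, again without overlap between the mutants (1.11 ± 0.14, adjusted p = 0.0027 in the edgeR test). In AACT1 the wt libraries lay between the mutants.

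A second kind of higher gene was low in wt at 30 min, between no tag and 2.48 CPM. ATIM, annotated as a member of the timeless family, had 15.5, 31.3 and 19.0 CPM in rrp4-2, against 5.17, 4.03 and 3.83 CPM in hen2-4 and 2.46, 2.48 and 0.937 CPM in wt. The groups were ordered rrp4-2, hen2-4, wt without overlap, and the tags that differed came from a TC inside an intron of the gene (chr5:21459058-21459190). SADHU3-2, a pseudogene of the SADHU family of retroelements, had 2.12, 2.68 and 1.49 CPM in rrp4-2, against 0.0680, 0.0458 and 0.0445 CPM in hen2-4, and no tag in wt. In tags this was 128 in rrp4-2 against 3 in hen2-4, a ratio of 41.5 with an exact 95% counting interval of 13.9 to 203.8, which covers counting error only. AT2G05635, annotated as a helicase of the RAD3 family, had 128 tags in rrp4-2, none in hen2-4 and 1 in wt, so that it was at least 41.5-fold higher in rrp4-2, taking 3 tags over the group as the floor. AT2G05290, a pseudogene on the same chromosome as AT2G05635, had 10.3, 4.21 and 6.09 CPM in rrp4-2, 1.29, 1.28 and 1.74 CPM in hen2-4 and 0.628, 0.663 and 0.221 CPM in wt. AT2G05635 and AT2G05290 lie within 2 Mb of HEN2, where 3 of 181 genes were called, HEN2 being the third. None of 636 genes within 2 Mb of RRP4 was called, and the share over all genes was 0.334%. Counts this small do not allow the 2 regions to be compared. The calls of SADHU3-2 and AT2G05635 were lost without the second or the third hen2-4 library, and that of AT2G05290 without rrp4-2 replicate 1 or hen2-4 replicate 1 or 2.

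Pseudogenes and noncoding RNA genes were described as lists because several called genes belonged to them, so these lists were chosen after the values were seen. Of 152 pseudogenes tested, 5 were higher and 1 was lower in rrp4-2, against 0.201% and 0.132% of all genes. Their median difference was 0.20 beside 0.02 for all genes, and 0.096 without the first rrp4-2 library. The most abundant of the 5 was AT3G25495, a transcribed pseudogene at chr3:9244323-9250791, with 201, 210.5 and 184 CPM in rrp4-2, 84.7, 81.6 and 86.4 CPM in hen2-4 and 35.97, 47.9 and 30.4 CPM in wt. The mutants did not overlap, both were above wt, and rrp4-2 was 2.36-fold above hen2-4 (1.24 ± 0.17, adjusted p = 0.0052 in the edgeR test), a call that was lost without the second hen2-4 library. Of 218 genes for long or other noncoding RNA, 3 were higher and none was lower, with a median of 0.18 that moved to 0.063 without the first rrp4-2 library. None of 30 snoRNA genes and none of 31 microRNA precursors was called, with medians of -0.20 and 0.16. At an unadjusted p of 0.05, 3 microRNA precursors and no snoRNA gene passed, beside 12.6% of all genes. Without the first rrp4-2 library the microRNA median changed sign, to -0.054, and the snoRNA median lay between -0.31 without the first hen2-4 library and -0.076 without the second rrp4-2 library.

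Disease resistance genes made up the largest group of related genes that were higher in rrp4-2. Plant intracellular immune receptors carry a nucleotide-binding site and leucine-rich repeats (NBS-LRR), often behind a TIR or a coiled-coil domain, and recognise pathogen effectors or their effects. The list of 104 tested genes annotated in this way was drawn up after the values were seen. It held 8 genes called higher and none called lower, against 0.201% and 0.132% of all genes. Its median difference was 0.49, beside 0.02 over all genes. Of the 104 genes 87 were above 0, and 53 were higher and 3 lower at an unadjusted p of 0.05, which 6.87% and 5.76% of all genes reached. With DESeq2, 12 of the genes were called higher and 2 lower, against 76 and 124 over all genes. With limma voom 9 were higher and none was lower, against 45 and 28 over all genes. The median lay between 0.44 and 0.55 when any 1 of the 6 libraries was left out.

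Summed over the 104 genes, the level was 3384, 3134 and 3384 CPM in rrp4-2, against 2270.3, 2139 and 2358 CPM in hen2-4 and 2604, 2124 and 2780.4 CPM in wt at 30 min. The rrp4-2 sums were above all others, and the hen2-4 sums overlapped with those of wt. At 10 min of flg22 the sums were 1494, 1639.8 and 1565 CPM in hen2-4 and 1279, 1294 and 1466 CPM in wt, below every library at 30 min. All 8 called genes have a TIR domain. Of the 17 tested genes with a coiled coil none was called in the edgeR test 2 were called higher with DESeq2 and 7 were higher at an unadjusted p of 0.05, with a median of 0.46 against 0.51 for the 74 with a TIR domain. A list of 34 genes annotated as receptor-like proteins, which sit at the cell surface, was also drawn up after the values were seen. None of the 34 was called and 7 were higher at an unadjusted p of 0.05, with a median of 0.44. RLP18, described below, was called but is not among the 34, since the list went by product names and RLP18 has none.

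**Figure D2:**
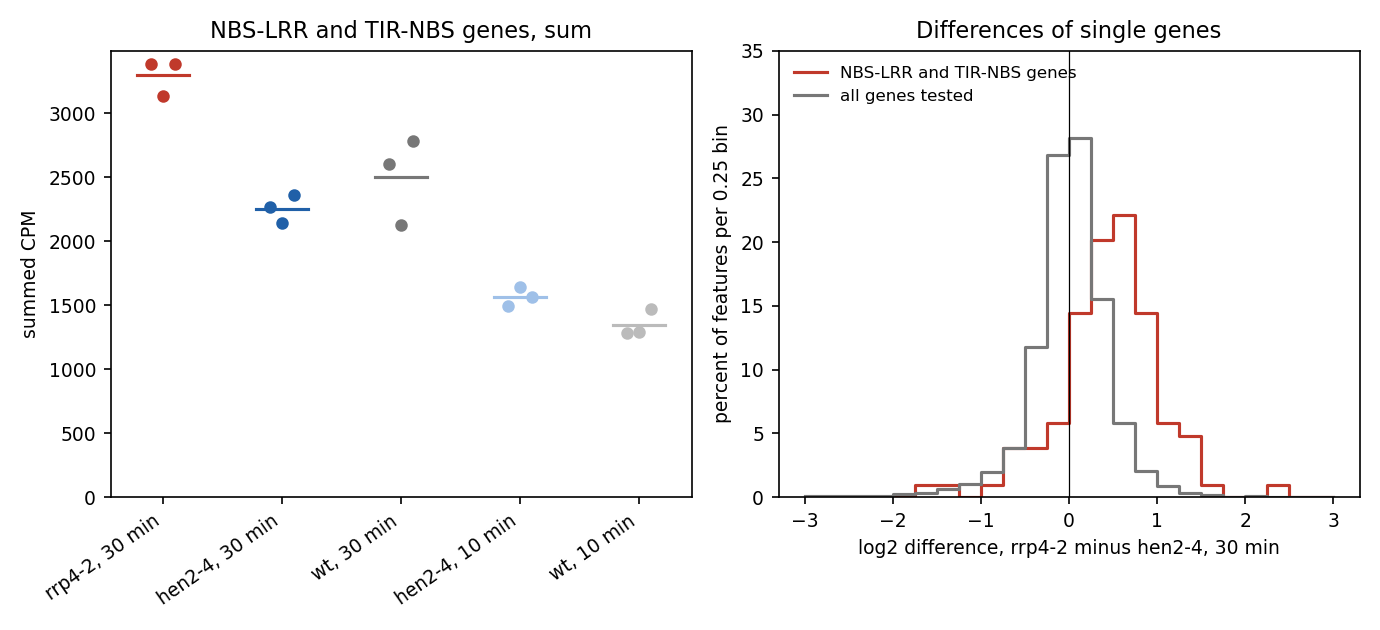
Left, summed CPM of 104 NBS-LRR and TIR-NBS genes in each library, with 1 point per library and a line at the mean of 3, for rrp4-2, hen2-4 and wt at 30 min and for hen2-4 and wt at 10 min. Right, the share of these genes (red) and of all 18879 genes tested (grey) in each bin of log2 difference between rrp4-2 and hen2-4, with values beyond 3 drawn in the last bins. The red distribution has its median at 0.49, the grey one at 0.02.

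Single members show the size of these differences. AT5G41750, of the TIR-NBS-LRR class, was the most abundant of the 8, with 228, 331 and 333 CPM in rrp4-2, 117, 110.3 and 129 CPM in hen2-4 and 222, 142 and 184 CPM in wt. It was 2.51-fold higher in rrp4-2 than in hen2-4 (1.33 ± 0.18, adjusted p = 0.0043 in the edgeR test), was called in all 6 fits that left out 1 library, and its wt libraries lay between those of the mutants. RPS6, which confers resistance to Pseudomonas carrying HopA1, had 47.1, 26.7 and 24.9 CPM in rrp4-2, 12.9, 11.5 and 14.2 CPM in hen2-4 and 8.59, 9.44 and 12.5 CPM in wt. The first rrp4-2 library was the highest, all 3 were above the hen2-4 range (1.35 ± 0.22, adjusted p = 0.014 in the edgeR test), and the call was lost without any 1 of the hen2-4 libraries. AT3G04220 and AT3G04210, neighbours on chromosome 3, had 24.7, 23.0 and 28.2 CPM and 10.13, 7.26 and 17.5 CPM in rrp4-2, against 9.11, 10.8 and 8.91 CPM and 3.26, 4.31 and 4.01 CPM in hen2-4. Both were without overlap between the mutants, at differences of 1.40 and 1.58. The remaining 4 genes, AT1G17600, AT5G46520, AT1G56520 and AT1G31540, differed by 2.28, 1.40, 1.02 and 1.01, and none of the 8 but AT5G41750 and RPS6 was called in more than 2 of the 6 fits that left out a library. Tags that map to more than 1 place had been discarded, so genes of this family with near-identical copies may be undercounted and their values are uncertain.

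Other defence genes stood beside them. AT1G72940 encodes a TIR domain protein without the receptor parts and had 21.0, 24.6 and 18.5 CPM in rrp4-2, 8.57, 8.84 and 9.36 CPM in hen2-4 and 9.27, 9.44 and 10.3 CPM in wt. Here hen2-4 and wt lay close together and rrp4-2 was 2.39-fold above hen2-4 (1.26 ± 0.16, adjusted p = 0.0024 in the edgeR test). RLP18, a receptor-like protein gene annotated as a transcribed pseudogene, had 88.2, 111 and 91.6 CPM in rrp4-2, 30.4, 31.7 and 26.7 CPM in hen2-4 and 32.3, 21.1 and 30.3 CPM in wt, with the same order (1.71 ± 0.28, adjusted p = 0.014 in the edgeR test). The RLP18 call was lost without rrp4-2 replicate 2 or any 1 hen2-4 library. CPR1, an F-box protein that promotes the turnover of immune receptors, had 43.1, 29.4 and 41.4 CPM in rrp4-2, 19.99, 16.3 and 18.5 CPM in hen2-4 and 15.71, 15.9 and 11.7 CPM in wt, and rose as well (1.06 ± 0.18, adjusted p = 0.019 in the edgeR test). The CPR1 call held in 1 of the 6 fits that left out a library.

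No early flg22 response gene was called. Of 21 such genes 5 were higher and none lower in rrp4-2 at an unadjusted p of 0.05, against 6.87% and 5.76% of all genes. The median was 0.16, which moved to 0.33 without the third hen2-4 library. WRKY33 and WRKY40, transcription factors of the immune response, differed by 0.01 ± 0.24 and 0.02 ± 0.22. MYB51, which activates the synthesis of indole glucosinolates, had 318, 345 and 276 CPM in rrp4-2, 143, 155 and 198 CPM in hen2-4 and 204, 207 and 156 CPM in wt. Its groups did not overlap between the mutants and its adjusted p was 0.019 in the edgeR test, but the difference of 0.92 stayed under the limit of 1. FMO1, the monooxygenase that makes the systemic resistance signal N-hydroxypipecolic acid, went the other way, with 6.89, 5.55 and 7.78 CPM in rrp4-2, 13.1, 29.7 and 24.9 CPM in hen2-4 and 13.4, 10.6 and 8.22 CPM in wt. FMO1 fell in rrp4-2 relative to hen2-4 (-1.75 ± 0.30, adjusted p = 0.019 in the edgeR test), a call that only the fit without the first hen2-4 library retained.

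Several of the 25 lower genes encode cell wall proteins. Extensins are hydroxyproline-rich glycoproteins that form a network in the wall, and several act in root hairs. Of 39 tested genes annotated as extensins or extensin-like, a list drawn up after the values were seen, 4 were called lower and none higher, against 0.132% and 0.201% of all genes. At an unadjusted p of 0.05, 13 were lower and 1 was higher, against 5.76% and 6.87% of all genes. The median was -0.26, and it moved to -0.50 without the first rrp4-2 library and to -0.14 without the third hen2-4 library. The summed level was 4974, 3718 and 3271 CPM in rrp4-2, 4232, 4686 and 7158 CPM in hen2-4 and 4204, 4851 and 7532 CPM in wt, and the sums of the mutants overlapped. EXT12 had 1.22, 1.02 and 1.34 CPM in rrp4-2, 6.19, 7.19 and 5.44 CPM in hen2-4 and 4.19, 2.76 and 2.21 CPM in wt. The 3 rrp4-2 libraries were below all others, 5.25-fold below hen2-4 (-2.39 ± 0.27, adjusted p = 0.00057 in the edgeR test), and the call stayed in all 6 fits that left out 1 library. EXT13 had 1.91, 1.43 and 1.63 CPM in rrp4-2, 9.59, 5.22 and 7.31 CPM in hen2-4 and 6.07, 3.75 and 2.81 CPM in wt, and EXT10 had 5.09, 3.56 and 4.90, 16.4, 15.99 and 16.9 and 10.0, 7.95 and 8.33 CPM in the same order of groups. Both fell in rrp4-2 relative to hen2-4, by differences of -2.14 and -1.86, and the wt mean lay between those of the mutants. The EXT13 call was lost without any 1 of the rrp4-2 libraries or the first of hen2-4. The fourth was MOP10, a Pollen Ole e 1 and extensin family protein, with 4.03, 4.35 and 5.15 CPM in rrp4-2 against 9.66, 12.7 and 16.7 CPM in hen2-4 and 14.8, 10.7 and 7.89 CPM in wt, and its call held in 1 of the 6 fits that left out a library.

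Further wall genes were lower in rrp4-2. PMEPCRA, a pectin methylesterase, had 40.4, 29.8 and 42.8 CPM in rrp4-2, 89.1, 85.3 and 105 CPM in hen2-4 and 81.5, 64.8 and 75.3 CPM in wt. Its rrp4-2 libraries were below every hen2-4 and wt library (-1.31 ± 0.19, adjusted p = 0.0064 in the edgeR test), also without any 1 of the 6 libraries. PRP3, a proline-rich wall protein of root hairs, had 9.38, 9.30 and 10.06 CPM in rrp4-2, 27.9, 26.2 and 28.5 CPM in hen2-4 and 26.8, 15.8 and 12.6 CPM in wt. XTH14, which cuts and rejoins xyloglucan, had 12.5, 14.3 and 16.8 CPM in rrp4-2, 44.9, 43.0 and 34.6 CPM in hen2-4 and 42.1, 32.1 and 21.0 CPM in wt. PRP3 and XTH14 fell by 1.52 and 1.49 on the log2 scale, without overlap between the mutants, and PRP3 was called in 2 of the 6 fits that left out a library. AT5G19890, a peroxidase, had 2.12, 1.57 and 1.54 CPM in rrp4-2, 12.2, 14.2 and 15.3 CPM in hen2-4 and 13.7, 8.72 and 8.88 CPM in wt (-2.995 ± 0.53, adjusted p = 0.021 in the edgeR test). It was the 1 gene called among 64 with peroxidase in their annotated name, a list drawn up after the values were seen. Of the 64 genes 51 were below 0, with a median of -0.38 (-0.25 without the second hen2-4 library). At an unadjusted p of 0.05, 14 of them were lower and none higher, against 5.76% and 6.87% of all genes. The calls of AT5G19890, XTH14 and EXT10 held in none of the 6 fits that left out a library.

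Root markers were measured beside these genes, since several of the lower genes are known from roots. At an unadjusted p of 0.05, 6.87% of all genes were higher and 5.76% lower in rrp4-2. Of 6 root markers none was called, 1 was lower at an unadjusted p of 0.05, 5 were below 0 and the median was -0.61. Their summed level was 351, 291 and 210.1 CPM in rrp4-2, 268, 355 and 337 CPM in hen2-4 and 574, 570.2 and 300.2 CPM in wt, so that the sums overlapped between all 3 groups, and none of the markers was at 0 in a group. PYK10, the most abundant, differed by 0.14 ± 0.27, while EXPA7, an expansin of root hairs, had 1.59, 2.50 and 2.13 CPM in rrp4-2 and 4.15, 4.17 and 2.76 CPM in hen2-4, without overlap and without passing the test (adjusted p = 0.28 in the edgeR test). The 13 genes annotated as root hair genes, a list drawn up after the values were seen, summed to 31.2, 32.7 and 30.0 CPM in rrp4-2, 41.7, 44.1 and 47.4 CPM in hen2-4 and 53.1, 47.6 and 33.0 CPM in wt. None of the 13 was called in the edgeR test and 1 was lower with DESeq2, 2 were lower at an unadjusted p of 0.05, 12 were below 0 with a median of -0.37 (-0.57 without rrp4-2 replicate 2 and -0.245 without rrp4-2 replicate 1), and their sums in rrp4-2 were under those of hen2-4 in every library. The part of root content in the lower wall genes was not tested. The medians of the other markers were 0.35 for leaf mesophyll, 0.16 for guard cells, -0.07 for vasculature and 0.27 for dividing cells, with no gene called and 1 higher at an unadjusted p of 0.05 among these 14. Leaving out 1 library moved the guard cell median to 0.32 (rrp4-2 replicate 2), that of dividing cells to 0.074 (rrp4-2 replicate 1) and that of vasculature to 0.052, a change of sign (hen2-4 replicate 3).

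**Figure D3:**
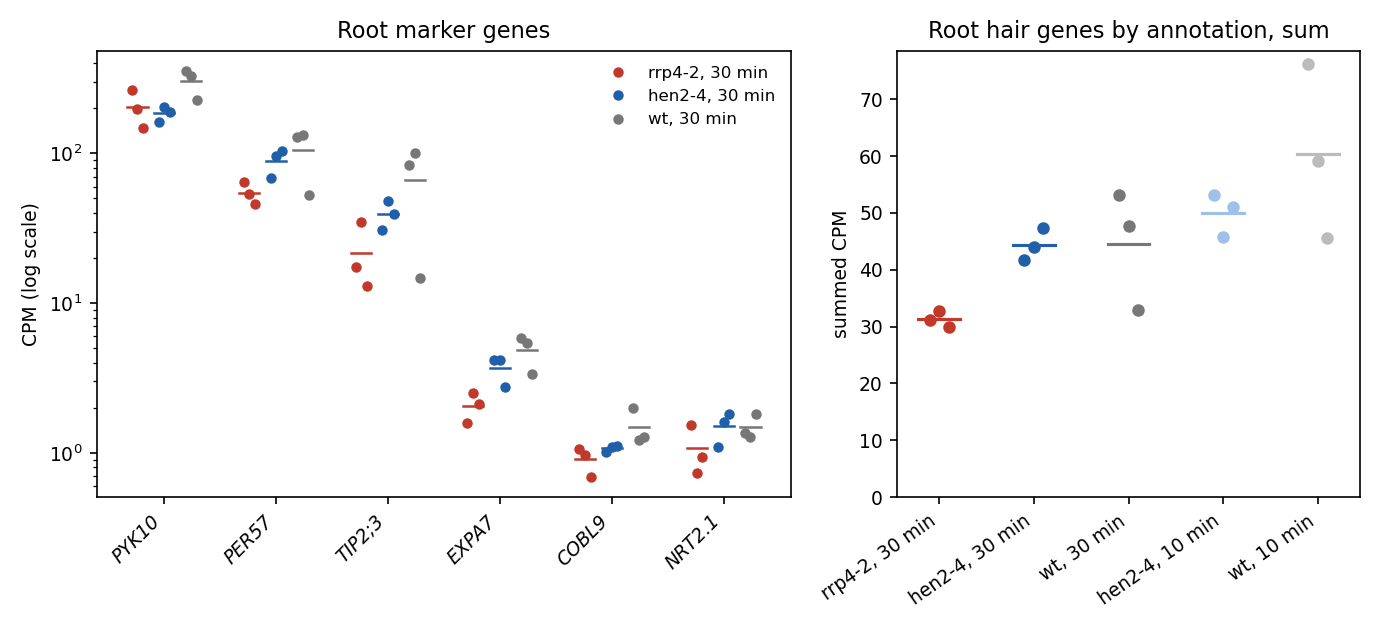
Left, CPM of 6 root marker genes on a log axis in the rrp4-2 (red), hen2-4 (blue) and wt (grey) libraries at 30 min, with 1 point per library and a line at the mean of 3. Right, summed CPM of 13 genes annotated as root hair genes, with the hen2-4 and wt libraries at 10 min added. The 3 red sums lie between 30.0 and 32.7 CPM, under the 41.7 to 47.4 CPM of hen2-4 at 30 min.

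Genes outside the wall had the 2 largest negative differences among the called genes. AT3G55920, a cyclophilin-like peptidyl-prolyl isomerase, had 0.530, 0.278 and 0.446 CPM in rrp4-2, against 5.64, 6.14 and 8.60 CPM in hen2-4 and 5.03, 7.29 and 6.84 CPM in wt. Here hen2-4 and wt overlapped and rrp4-2 alone was low, 16.2-fold below hen2-4 (-4.02 ± 0.31, adjusted p = 7.2e-06 in the edgeR test). AT5G35935, a pseudogene on chromosome 5, had 0.689, 0.0925 and 0.248 CPM in rrp4-2, 24.5, 28.1 and 24.7 CPM in hen2-4 and 2.30, 2.04 and 2.21 CPM in wt. It was 76.0-fold lower in rrp4-2 than in hen2-4 (-6.25 ± 0.34, adjusted p = 1.8e-07 in the edgeR test), with wt between the mutants. A TC on the other strand within the span of AT5G35935 (chr5:14089421-14089449), counted as intergenic, had no tag in rrp4-2, against 291 tags in hen2-4 and 7 in wt, at least 99.8-fold lower in rrp4-2. Both calls held without any 1 of the 6 libraries. IPMI1, an isomerase subunit of glucosinolate chain elongation, and CYP71A20, a cytochrome P450, were lower in rrp4-2 as well, at -1.32 and -2.31, and held their call in 0 and 2 of the 6 fits that left out a library.

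The rest of the 15 lower genes with the smallest adjusted p were AT3G04320, AT4G25790, AT2G41800 and AT4G29690. AT3G04320, a Kunitz protease inhibitor, had 5.30, 6.20 and 5.50 CPM in rrp4-2, 15.6, 23.4 and 15.73 CPM in hen2-4 and 12.6, 15.4 and 10.0 CPM in wt. AT4G25790, a CAP family protein, had 2.97, 1.94 and 1.59 CPM in rrp4-2, 7.34, 5.95 and 10.5 CPM in hen2-4 and 5.39, 3.86 and 5.29 CPM in wt. In both genes rrp4-2 was below every other library, at -1.69 and -1.87 against hen2-4, and each call held in 3 of the 6 fits that left out a library. AT2G41800, a DUF642 protein, and AT4G29690, an alkaline phosphatase-like protein, fell to 4.61, 5.27 and 5.45 CPM and 2.01, 1.71 and 1.98 CPM in rrp4-2, against 12.8, 18.1 and 15.6 CPM and 4.69, 5.54 and 4.86 CPM in hen2-4, and each held its call in 1 of these fits.

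Among genes of RNA decay, HEN2 alone was called. Of 11 tested exosome core genes none was called and the median was -0.05, from RRP40B at -0.39 ± 0.51 to RRP42 at 0.29 ± 0.21, with the catalytic subunit RRP44A at 0.14 ± 0.13. Of 7 nuclear cofactor genes HEN2 alone was called, and MTR4, the related helicase of the nucleolus, differed by -0.05 ± 0.16. None of the 7 cytoplasmic cofactor genes was called, and all 7 had 95% intervals within 1 on either side of 0, among them SKI2, the helicase of the SKI complex, at 0.13 ± 0.13. No gene was called among 19 of other mRNA decay, 10 of wax synthesis, 16 of ribosome biogenesis or 11 of gene silencing by small RNA, with medians of 0.05, 0.19, 0.11 and -0.01. In these 6 lists with no call, 3 genes passed an unadjusted p of 0.05, all higher in rrp4-2. Over all genes 6.87% were higher and 5.76% lower at that limit. DESeq2 and limma voom called no gene of these 6 lists. Most of these medians are near 0 and moved with single libraries, between -0.11 and -0.038 for the exosome core (hen2-4 replicates 2 and 1 left out) and between -0.064 and 0.12 for other mRNA decay (hen2-4 replicate 1 and rrp4-2 replicate 3 left out). Without the first rrp4-2 library the medians of wax synthesis and ribosome biogenesis were 0.063 and 0.038, and that of gene silencing ran between -0.088 and 0.067 (hen2-4 replicates 2 and 3 left out).

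Other programmes gave no calls in the edgeR test either. Of 20 heat shock genes 17 were below 0, with a median of -0.34 that moved to -0.53 without the third rrp4-2 library and to -0.100 without the first. None was called, 2 were lower at an unadjusted p of 0.05, and 2 were called lower when the 6 libraries were fitted alone and 1 with DESeq2. BAG6, a heat-induced co-chaperone, had 26.1, 31.2 and 33.7 CPM in rrp4-2 and 47.9, 89.0 and 69.7 CPM in hen2-4 without overlap (adjusted p = 0.12 in the edgeR test), while HSP90.1 ranged more widely, at 731, 2378 and 2734 CPM in rrp4-2 and 2393, 2068 and 1152 CPM in hen2-4. Of 19 clock genes none was called, 2 were called higher with DESeq2, 3 were higher at an unadjusted p of 0.05, and the median was 0.26. CCA1, a morning transcription factor of the clock, had 5.41, 5.87 and 6.54 CPM in rrp4-2, 1.56, 2.02 and 1.69 CPM in hen2-4 and 1.68, 0.331 and 3.36 CPM in wt, and LNK2 had 53.5, 64.0 and 63.6, 20.6, 39.8 and 29.1 and 15.6, 12.0 and 12.7 CPM in the same order of groups. Neither overlapped between the mutants, and neither passed the test (adjusted p = 0.15 and 0.067 in the edgeR test). No gene was called among 19 cytosolic ribosomal protein genes, with a median of -0.06, or among 45 nuclear photosynthesis genes, with a median of 0.18. At an unadjusted p of 0.05, 1 of these ribosomal protein genes was lower and 5 of the photosynthesis genes were higher. The shares of all genes at that limit, for these and the heat shock and clock lists, were 6.87% higher and 5.76% lower. Without the third hen2-4 library the ribosomal protein median was -0.020, and without the second the photosynthesis median was 0.099.

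Transcription starts were then compared one by one. Of 26504 TCs tested, 68 (0.257%) were called, 41 (0.155%) higher and 27 (0.102%) lower in rrp4-2. Without the limit on the difference 77 (0.291%) passed, and the same fit called 7.83% of TCs between rrp4-2 and wt and 5.07% between hen2-4 and wt. Groups that did not overlap were found in 10.7% of TCs with rrp4-2 above and in 10.7% with rrp4-2 below, and with total library sizes in place of TMM the split was 53 higher and 22 lower. The majority turned to lower TCs with DESeq2 (122 higher and 147 lower), with the 6 libraries alone (104 and 209) and without the third wt library (93 and 147). Of the 68, 40 were primary TCs, within 100 bp of an annotated gene start, of which 18 were higher and 22 lower. They were 0.393% of 10169 primary TCs tested. Alternative TCs elsewhere in genes had 17 higher and 3 lower calls among 13234 tested, 0.151% and so under the 0.257% of all TCs. There were 46 higher and 55 lower alternative TCs with DESeq2 and 22 higher and 7 lower with limma voom. Antisense TCs had 5 higher calls and no lower one among 1589 (15 and 5 with DESeq2, 7 and 2 with limma voom), an example being a TC antisense to CYP81H1 (chr4:17557157-17557354) with 19.0, 21.8 and 18.18 CPM in rrp4-2, 8.45, 10.4 and 8.64 CPM in hen2-4 and 2.03, 1.69 and 1.94 CPM in wt. Both mutants were above wt there, and rrp4-2 was above hen2-4 in every library, a call that was lost without rrp4-2 replicate 2 or hen2-4 replicate 1 or 3. TCs counted as intergenic were the remainder, which entered no gene's count and belonged to neither antisense class. Of the 816 tested, 224 lay inside a coding gene on their own strand. Among the 816, 1 was higher and 2 were lower, and both lower TCs lay within the span of an annotated gene. None of 241 upstream antisense TCs, which start within 400 bp of a gene start on the other strand, was called in the edgeR test. With DESeq2 7 of the 241 were higher, and with limma voom 3. At an unadjusted p of 0.05, 37 of the 241 were higher and 3 lower, against 6.64% and 5.47% of all TCs.

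A TC counted as intergenic that overlaps AT1G75945 on its own strand (chr1:28515870-28515920) was nearly specific to hen2-4, with 1.37, 0.951 and 0.145 CPM in rrp4-2, against 40.1, 45.8 and 47.5 CPM in hen2-4 and 0.104, 0.112 and 1.39 CPM in wt. The opposite case was seen on chromosome 1 at HEI10, a RING protein that promotes meiotic crossovers, and MRD1, which overlaps its start on the other strand. The primary TC of HEI10 (chr1:19963237-19963309) had 4.37, 1.86 and 2.41 CPM in rrp4-2, 0.200, 0.0449 and 0 CPM in hen2-4 and 15.3, 15.1 and 4.10 CPM in wt. The TC just upstream of it (chr1:19963102-19963196) had 64 tags in rrp4-2, none in hen2-4 and 226 in wt, at least 20.7-fold higher in rrp4-2 than in hen2-4. MRD1 had 4.82, 3.38 and 1.59 CPM in rrp4-2, 0.272, 0.137 and 0.0891 CPM in hen2-4 and 5.60, 11.5 and 9.87 CPM in wt. These 2 TCs and MRD1 were nearly without tags in hen2-4, with rrp4-2 below wt in the mean. A further TC of HEI10 downstream on the same strand (chr1:19964246-19964364) had 1.73, 3.30 and 2.41 CPM in rrp4-2, 1.93, 2.97 and 2.23 CPM in hen2-4 and 1.92, 1.12 and 0.998 CPM in wt. Without the second hen2-4 library the calls of both TCs were lost, and MRD1 lost its call without rrp4-2 replicate 1 or hen2-4 replicate 2 or 3.

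Other single starts moved with their genes. A TC of AT3G30122, a transcribed pseudogene (chr3:11761075-11761132), had 6.65, 7.79 and 6.32 CPM in rrp4-2, 2.33, 2.38 and 1.87 CPM in hen2-4 and 1.09, 2.02 and 1.55 CPM in wt, and one of the long noncoding RNA AT5G66558 (chr5:26566650-26566823) had 11.9, 14.4 and 10.2 CPM in rrp4-2, 4.99, 5.35 and 3.92 CPM in hen2-4 and 5.35, 4.55 and 2.88 CPM in wt. In both, hen2-4 and wt lay close together below rrp4-2. Among the lower TCs, that of GMD1, an enzyme of GDP-fucose synthesis (chr5:26476265-26476410), had 8.53, 8.56 and 9.40 CPM in rrp4-2, 19.96, 25.03 and 22.3 CPM in hen2-4 and 19.7, 20.5 and 12.7 CPM in wt. That of CYP71A16, a P450 of root triterpene metabolism (chr5:17033655-17033790), had 7.36, 4.75 and 4.53 CPM in rrp4-2, 13.4, 22.1 and 17.3 CPM in hen2-4 and 19.6, 26.2 and 9.43 CPM in wt. Here rrp4-2 alone was low, and wt overlapped with hen2-4. Of the 6 fits that left out a library, the TC calls held in 5 for AT3G30122, 1 for AT5G66558, 0 for GMD1 and 0 for CYP71A16.

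A set of TCs raised in hen2-4 was chosen from libraries outside the comparison. It held the 1299 of 25531 TCs (5.09%) that were called higher in hen2-4 than in wt at 10 min, here named HEN2-sensitive. The name gives the rule of choice, and whether these TCs depend on HEN2 itself was not tested. At 30 min these HEN2-sensitive TCs summed to 14688, 12173 and 13108 CPM in rrp4-2, 10102, 11008 and 11677 CPM in hen2-4 and 4988, 4661 and 4175 CPM in wt. Both mutants were far above wt, and the rrp4-2 sums were above the hen2-4 sums in every library. Relative to wt, the median difference of these TCs was 2.62 in rrp4-2 and 2.37 in hen2-4. Between the mutants the median was 0.20, beside 0.03 over all TCs, and 64.5% of the TCs were above 0. It lay between 0.10 and 0.25 when any 1 of the 6 libraries was left out, lowest without the first rrp4-2 library, so that 1 library moved it by over 1.5 times. Of the 1299 TCs 10 were called higher and 5 lower, together 1.15%, against 0.257% of all TCs. With DESeq2 31 of them were higher and 10 lower, against 122 and 147 over all TCs. For 26.5% the 95% interval of the difference lay within 1 on either side of 0, against 57.5% of all TCs.

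**Figure D4:**
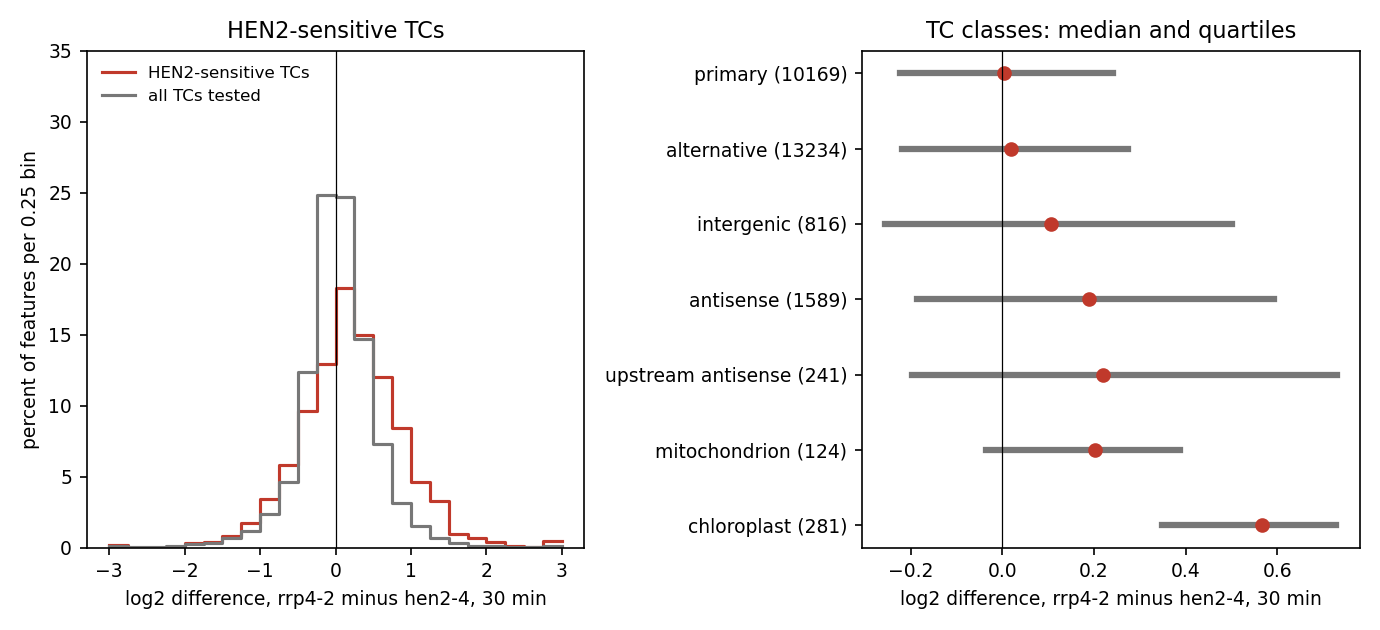
Left, the share of 1299 HEN2-sensitive TCs (red) and of all 26504 TCs tested (grey) in each bin of log2 difference between rrp4-2 and hen2-4 at 30 min, with values beyond 3 drawn in the last bins. Right, the median (point) and the quartiles (bar) of the same difference by TC class, with the number of TCs in brackets. The medians run from 0.00 for primary TCs to 0.57 for chloroplast TCs.

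By position, the median difference was 0.004 for primary and 0.02 for alternative TCs, against 0.19 for antisense, 0.22 for upstream antisense and 0.11 for TCs counted as intergenic. The summed antisense TCs had 5629.6, 4896 and 4666 CPM in rrp4-2, 4155, 4371 and 4674 CPM in hen2-4 and 2084, 2331 and 2473 CPM in wt, with rrp4-2 and hen2-4 overlapping narrowly and both above wt. Chloroplast TCs had the highest median, 0.57, with 93.2% of 281 above 0 and none called in the edgeR test and 1 higher with DESeq2, while 74 were higher and none lower at an unadjusted p of 0.05, against 6.64% and 5.47% of all TCs. Organelle transcripts are not capped, so their tags do not mark capped starts. Chloroplast TCs took 1.31, 1.40 and 0.932% of the tags in rrp4-2, 0.8999, 0.868 and 0.675% in hen2-4 and 1.03, 0.928 and 0.638% in wt, where rrp4-2 was above hen2-4 and overlapped with wt.

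Some genes changed in which of their TCs they used. Of 3584 TCs tested for use, 15 (0.419%) in 8 genes were called by limma's diffSplice. AT3G56210, an ARM repeat protein, had a TC in its 3′ UTR (chr3:20853676-20853692) that held 30.2, 30.1 and 29.5% of the gene's tags in rrp4-2, 3.28, 3.65 and 4.30% in hen2-4 and 6.87, 5.70 and 14.5% in wt. The 3 rrp4-2 libraries were nearly alike and above all other libraries, and the call held without any 1 of the 6 libraries. In HEI10 the downstream TC (chr1:19964246-19964364) held 22.4, 56.2 and 43.1% in rrp4-2, 90.6, 98.5 and 100% in hen2-4 and 8.77, 5.15 and 14.2% in wt. The shares were highest in hen2-4 and lowest in wt, without overlap.

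In AT3G02620, a stearoyl-acyl-carrier-protein desaturase, the 5′ TC (chr3:560169-560235) held 8.09, 10.5 and 3.72% in rrp4-2, 43.0, 36.6 and 27.1% in hen2-4 and 40.6, 38.3 and 25.4% in wt. The hen2-4 and wt shares overlapped and those of rrp4-2 lay below both. The gene's other TC, in a coding exon, held most tags in all 3 groups, 91.9, 89.5 and 96.3% in rrp4-2, 57.0, 63.4 and 72.9% in hen2-4 and 59.4, 61.7 and 74.6% in wt. AT4G10750 and AT1G78750 also have a TC in a coding exon. It held 10.5, 12.3 and 15.4% in rrp4-2, 23.1, 30.9 and 26.7% in hen2-4 and 2.26, 2.86 and 3.35% in wt in AT4G10750, and 37.9, 17.5 and 34.9% in rrp4-2, 51.5, 70.8 and 57.4% in hen2-4 and 8.33, 6.56 and 12.0% in wt in AT1G78750, an F-box protein. In both genes the share was highest in hen2-4 and lowest in wt. The use calls of AT4G10750 and AT1G78750 held in 3 and 2 of the 6 fits that left out a library.

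**Figure D5:**
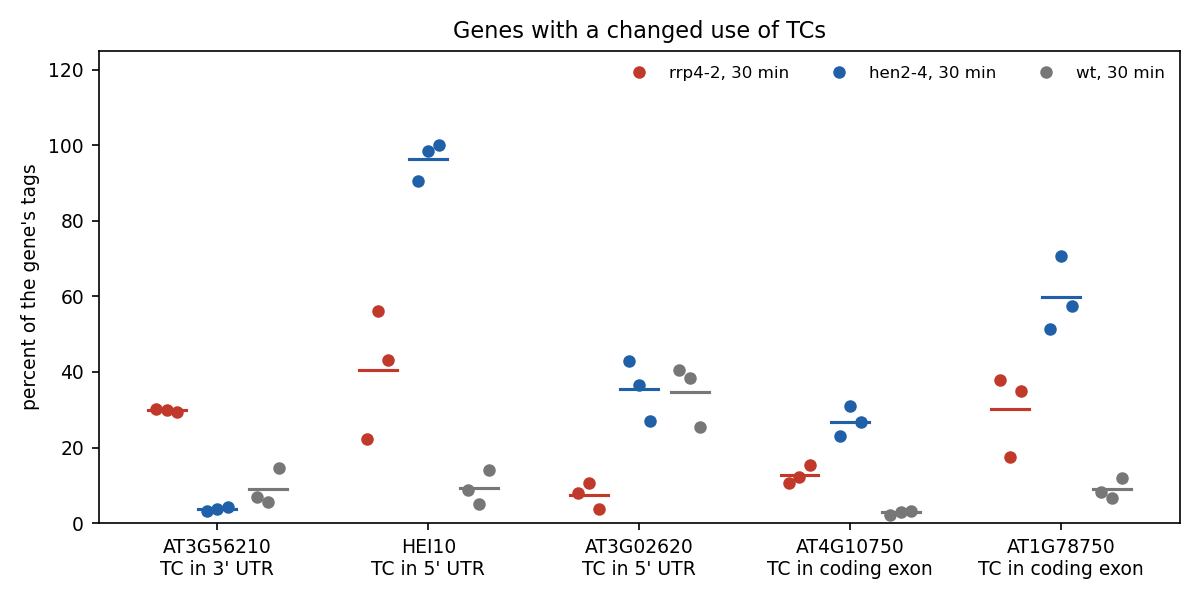
Share of a gene's tags, in percent, that came from 1 of its TCs in the rrp4-2 (red), hen2-4 (blue) and wt (grey) libraries at 30 min, for 5 genes with a called change of TC use, with 1 point per library and a line at the mean of 3. In AT3G56210 the red points sit between 29.5% and 30.2%, above all others, and in AT3G02620 they lie below all others.

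The starts called in the 2 directions differed in shape and in the bases before them. The median width of the 41 higher TCs was 101 bp and that of the 27 lower TCs 56 bp, beside 115 bp over 26272 nuclear TCs. The letters TATAAA, searched on both strands in the 60 bases before each TC, were found in 4 of 41 higher TCs (9.76%) and in 14 of 27 lower TCs (51.9%), beside 17.1% of all nuclear TCs. On the strand of the TC and 40 to 16 bases before its upstream edge, the shares were 7.32%, 33.3% and 8.43% for the higher, the lower and all nuclear TCs. A TATA box is placed relative to the start itself, which can lie well inside a wide TC. The shares therefore cannot be told apart from the difference in width. These are descriptions of letters, without a test, and no match says nothing about a factor. The 60 bases before the leading TC are printed below for 3 higher and 4 lower genes that lie outside annotated exons there, from the RefSeq genome TAIR10.1, read 5′ to 3′ on the strand of the gene, to show cases with and without the letters. Capitals mark TATAAA or, on the other strand, TTTATA.
QQS: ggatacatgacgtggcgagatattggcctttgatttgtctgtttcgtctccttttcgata
AT1G56060: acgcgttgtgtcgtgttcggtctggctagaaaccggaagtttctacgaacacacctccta
RLP18: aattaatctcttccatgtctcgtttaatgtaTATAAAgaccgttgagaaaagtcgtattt
EXT13: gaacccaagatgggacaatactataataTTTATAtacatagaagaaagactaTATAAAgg
PRP3: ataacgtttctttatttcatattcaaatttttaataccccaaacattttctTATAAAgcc
AT5G35935: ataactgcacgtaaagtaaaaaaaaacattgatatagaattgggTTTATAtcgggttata
PMEPCRA: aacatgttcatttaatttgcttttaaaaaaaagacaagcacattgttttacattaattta

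QQS, AT1G56060 and PMEPCRA show no match, and AT5G35935 holds the letters on the other strand. Counted from the upstream edge of the TC, EXT13 and PRP3 hold the letters with their first base at -8 and -9. RLP18, a higher gene, holds them at -29. The windows span chr3:12348950-12349009 for QQS, chr1:20967257-20967316 for AT1G56060, chr2:6507316-6507375 for RLP18 and chr5:13434041-13434100 for EXT13. Those of PRP3, AT5G35935 and PMEPCRA span chr3:23182623-23182682, chr5:14090039-14090098 and chr1:3888505-3888564, and the minus strand is shown for AT1G56060 and AT5G35935. EXT12, AT2G41800, AT4G25790, FMO1, AT5G19890 and AT4G29690, all lower in rrp4-2, hold the letters between -31 and -26 in windows that overlap annotated exons and are not printed. HEN2 and ATIM, both higher in rrp4-2, hold the letters at -29 and -26 in windows of the same kind.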

How the data were processed

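CAGE libraries were made from pools of whole seedlings, and 15 libraries in 5 groups of 3 were analysed. The authors mapped the reads with Bowtie 1.1.2 to TAIR10, kept unique 5′ ends, joined them into TCs and deposited raw tag counts per TC and per gene. The deposited tables also held 9 columns each that matched no labelled sample, which were not used, nor were TPM tables. Library totals ran from 13.9 to 24.8 M tags.

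Counts were fitted with edgeR 4.0.16 in R 4.3.3 (quasi-likelihood test, TMM, filterByExpr, 1 coefficient per group over the 15 libraries), and a feature was called at a Benjamini-Hochberg adjusted p of at most 0.05 with an absolute log2 difference of at least 1. TC use was tested with limma 3.58.1 (voom, diffSplice) for TCs holding at least 10% of their gene's tags in 3 libraries. HEN2-sensitive TCs came from an edgeR fit of the 10 min libraries alone. Each fit was tested on simulated data. The alternatives were DESeq2 1.42.0, voom, other scalings, no filter, other sets of libraries, a replicate block and leaving out each library.

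Named were HEN2, RRP4, up to 15 called genes and 10 called TCs per direction by adjusted p, 5 genes with changed TC use, called list members and the most abundant and most different members of each list. The comparison and lists were chosen with earlier results of these data known, and the lists stated to be so after their values were seen. Other genes named in the text were chosen after their values were seen. Gene positions, names and sequences came from RefSeq TAIR10.1, whose chromosome names and lengths fitted the TC positions.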

Additional observations from a re-analysis of the deposited data

How the results depend on the processing

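Of 50 named called genes and TCs, 13 kept their call under all 15 alternative settings and none changed direction under any of them, and 5 of 69 named features that were not called passed under at least 1 setting. Genes called, 63 with all 15 libraries, numbered 200 with DESeq2, 241 with only the 6 libraries compared, 30 with the 9 libraries at 30 min, 198 without wt replicate 3 at 30 min and between 13 and 35 when each of the 6 libraries was left out, lowest without hen2-4 replicate 2. TCs called, 68 with all libraries, numbered 269 with DESeq2, 105 with limma voom, 313 with the 6 libraries, 40 with the 9 libraries, 240 without wt replicate 3 and between 16 and 50 in the leave-one-out fits. TCs with changed use, 15 in all, numbered 9 with no 10% rule and between 5 and 11 in the leave-one-out fits. The cause of these shifts was not tested. Library sizes alone moved the median difference over all genes to 0.067, against 0.023 with TMM, and split the calls into 41 higher and 19 lower genes and 53 higher and 22 lower TCs, against 38 and 25 genes and 41 and 27 TCs with TMM. The majority of calls turned to lower features with DESeq2 (76 higher and 124 lower genes, 122 and 147 TCs), with the 6 libraries (74 and 167 genes, 104 and 209 TCs) and without wt replicate 3 (64 and 134 genes, 93 and 147 TCs). Same-numbered rrp4-2 and hen2-4 libraries did not deviate together (correlations of -0.097, 0.058 and -0.204), so the numbers do not pair the samples. A fit with the replicate block called 65 genes and 80 TCs, and 10 TCs for use. Genes and TCs with few tags in either group carry wide counting error.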
